A study of Mus musculus with 8 samples.

Results

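The genes described here encode the enzymes of cholesterol synthesis and of fatty acid synthesis, together with the proteins that control, move and store sterols. The members were taken by gene symbol from a list of 43 genes, and 40 of them had a probe on the array, out of 15967 genes with a probe in all. Acat2, Nr1h2 and Soat1 had no probe that carried their symbol, and they were not analysed here. The 40 genes were read by 52 probes, because 9 of them had more than 1 probe. A gene is given by its probe with the highest mean signal, and other probes are given for some of the genes where they disagreed.

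Flp-In-3T3 is a line of mouse embryonic fibroblasts with a recombination site at which a single copy of a cDNA can be placed. The study compared the unmodified line, called the control line here, with a line that carried the mouse Pax6 cDNA and a line that carried Pax6(5a), the splice form of this eye and brain transcription factor with an extra exon in its first DNA-binding domain. Total RNA of each line was read on Illumina Mouse Ref-8 V1.1 arrays, 8 in all. The control line was sampled at passage 13 on 2 arrays and at passage 19 on 1 array, the Pax6(5a) line at passage 8 on 2 arrays and at passage 13 on 1 array, and the Pax6 line at passage 9 and at passage 15 on 1 array each. Control cells were kept in Zeozin at 100 ug/ml and both Pax6 lines in Hygromycine at 150 ug/ml, all in high-glucose DMEM with serum, so the selection drug and the insert cannot be told apart. Each cDNA was under the promoter of the expression vector (pEF5/FRT) and was represented by 1 line, so the insert and the history of that line cannot be told apart either. The labels do not say whether the RNA preparations came from separate dishes. In the comparisons of lines, p-values measure the spread between the preparations and passages within these lines. They do not measure the spread between separately made lines.

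Cells make cholesterol from acetyl-CoA through mevalonate, isoprenoids, squalene and lanosterol. When membrane cholesterol is low, SCAP carries the SREBP transcription factors from the endoplasmic reticulum to the Golgi, where they are cut and released, and INSIG proteins hold SCAP back when sterol is plentiful. SREBP2, the product of Srebf2, acts mainly on genes of cholesterol synthesis and uptake, and SREBP1 on genes of fatty acid synthesis, often together with the factors NF-Y and Sp1. The liver X receptors respond to oxidised sterols and raise genes of sterol export such as Abca1 and Abcg1.

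The stretches of 250 bases before the annotated start were searched because many of the sterol genes were low on the same arrays, as given below. RefSeq promoters (GRCm38.p6) were found for 33 of the 43 listed genes. The letters CCAAT, the core of the NF-Y element, were found on either strand in 14 of 15 sterol synthesis genes with a promoter in the table (93.3%), against 41.4% of the 5719 genes with a promoter that were detected on all arrays. GGGCGG, the core of the Sp1 element, was found on either strand in 14 of the 15 (93.3%) against 64.7%. TCACNCCAC, a form of the sterol element, was found on either strand in 1 of the 15, Hmgcs1, and in 1.19% of detected genes. A gene with more than 1 annotated start counted where any of its windows held the letters. These 15 genes are not the same set as the 15 sterol synthesis genes detected on the arrays, and none of these letter matches was tested as a binding site. The promoters of Hmgcs1 (chr13:119690101-119690350, plus strand), Mvd (chr8:122443423-122443672, minus strand), Cyp51 (chr5:4104698-4104947, minus strand) and Nsdhl (chrX:72918271-72918520, plus strand) are shown as examples. Each window ends right at the outer border of the annotated gene. The examples were picked after the data were seen, and Hmgcs1 and Cyp51 did not pass the fold threshold given below in either Pax6 line. Dhcr7, which fell most, is not shown. Of its annotated starts only start 3 had CCAAT matches, at 85 and 49 bases before it. CCAAT, its reverse ATTGG and, in Hmgcs1 alone, the sterol element are in capitals, and none of these matches overlapped another.
Hmgcs1: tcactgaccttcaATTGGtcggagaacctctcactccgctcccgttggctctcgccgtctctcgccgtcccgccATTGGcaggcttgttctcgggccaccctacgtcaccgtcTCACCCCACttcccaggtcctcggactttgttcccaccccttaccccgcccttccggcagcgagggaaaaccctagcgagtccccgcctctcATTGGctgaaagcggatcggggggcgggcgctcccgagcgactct
Mvd: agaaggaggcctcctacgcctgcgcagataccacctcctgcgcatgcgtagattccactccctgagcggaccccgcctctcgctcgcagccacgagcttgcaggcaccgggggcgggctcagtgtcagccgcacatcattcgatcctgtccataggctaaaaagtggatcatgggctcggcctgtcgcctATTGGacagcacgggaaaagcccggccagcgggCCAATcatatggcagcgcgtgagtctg
Cyp51: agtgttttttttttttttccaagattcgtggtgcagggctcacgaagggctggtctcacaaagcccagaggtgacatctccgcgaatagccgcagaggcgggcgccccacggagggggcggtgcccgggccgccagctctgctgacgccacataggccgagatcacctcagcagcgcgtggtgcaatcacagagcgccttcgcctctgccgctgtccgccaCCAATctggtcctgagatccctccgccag
Nsdhl: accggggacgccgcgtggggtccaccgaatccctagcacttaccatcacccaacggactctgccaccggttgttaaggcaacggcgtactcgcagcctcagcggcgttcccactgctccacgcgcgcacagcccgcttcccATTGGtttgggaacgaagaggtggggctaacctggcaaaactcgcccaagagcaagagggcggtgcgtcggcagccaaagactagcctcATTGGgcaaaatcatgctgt
Hmgcs1 held 3 CCAAT matches, Mvd and Nsdhl 2 each and Cyp51 1. The sterol element of Hmgcs1 lay 137 bases before the start, between CCAAT matches at 176 and 45 bases. The match of Cyp51 lay 29 bases before the start, and the matches nearest to the start of Mvd and Nsdhl lay 27 and 20 bases before it.

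Levels are log2 signals after quantile normalization, and a probe counts as detected where its detection p is under 0.01. Of the 40 genes, 32 were detected on all 8 arrays, 6 on none (Fdft1, Sc5d, Srebf1, Nr1h3, Abca1 and Mylip) and 2 on some, Idi1 on 2 arrays and Abcg1 on 1. Between 10083 and 10685 of 24613 probes were detected per array. The fibroblast label was checked by 14 marker genes, of which 11 were detected on all arrays. Of the 11 adipocyte markers with a probe 9 were detected on no array, Adipoq, Fabp4, Plin1 and Lep among them. The others were Lpl, detected on all 8 arrays at 7.41 to 8.49, and Lipe, detected on 7 arrays. The probe for Pax6 was detected on no array, at 5.50 to 5.83 on the log2 scale, so it checks no label; which part of the transcript it reads is not given in the sources used here.

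The first question was how the Pax6 line differed from the control line. A member was called where its adjusted p was under 0.01 (limma, Benjamini-Hochberg over all probes) and its signal changed 1.5-fold or more. By this rule 7 of 40 members were lower in the Pax6 line and 1 was higher, against 1.42% of all genes lower and 1.03% higher. The 7 were the sterol enzymes Mvd, Sqle, Lss, Nsdhl, Hsd17b7 and Dhcr7 and the fatty acid desaturase Scd1. With adjusted p under 0.05 and no fold minimum, 12 members were lower and 1 was higher, against 3.82% and 3.9% of all genes. The 5 that this rule added were Cyp51, Msmo1, Insig1, Stard4 and Elovl5. All 15 sterol synthesis genes detected on all arrays had a log2 difference below 0, with a median of -0.54, whereas 48.6% of all detected genes were below 0, with a median of 0.01.

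**Figure D1:**
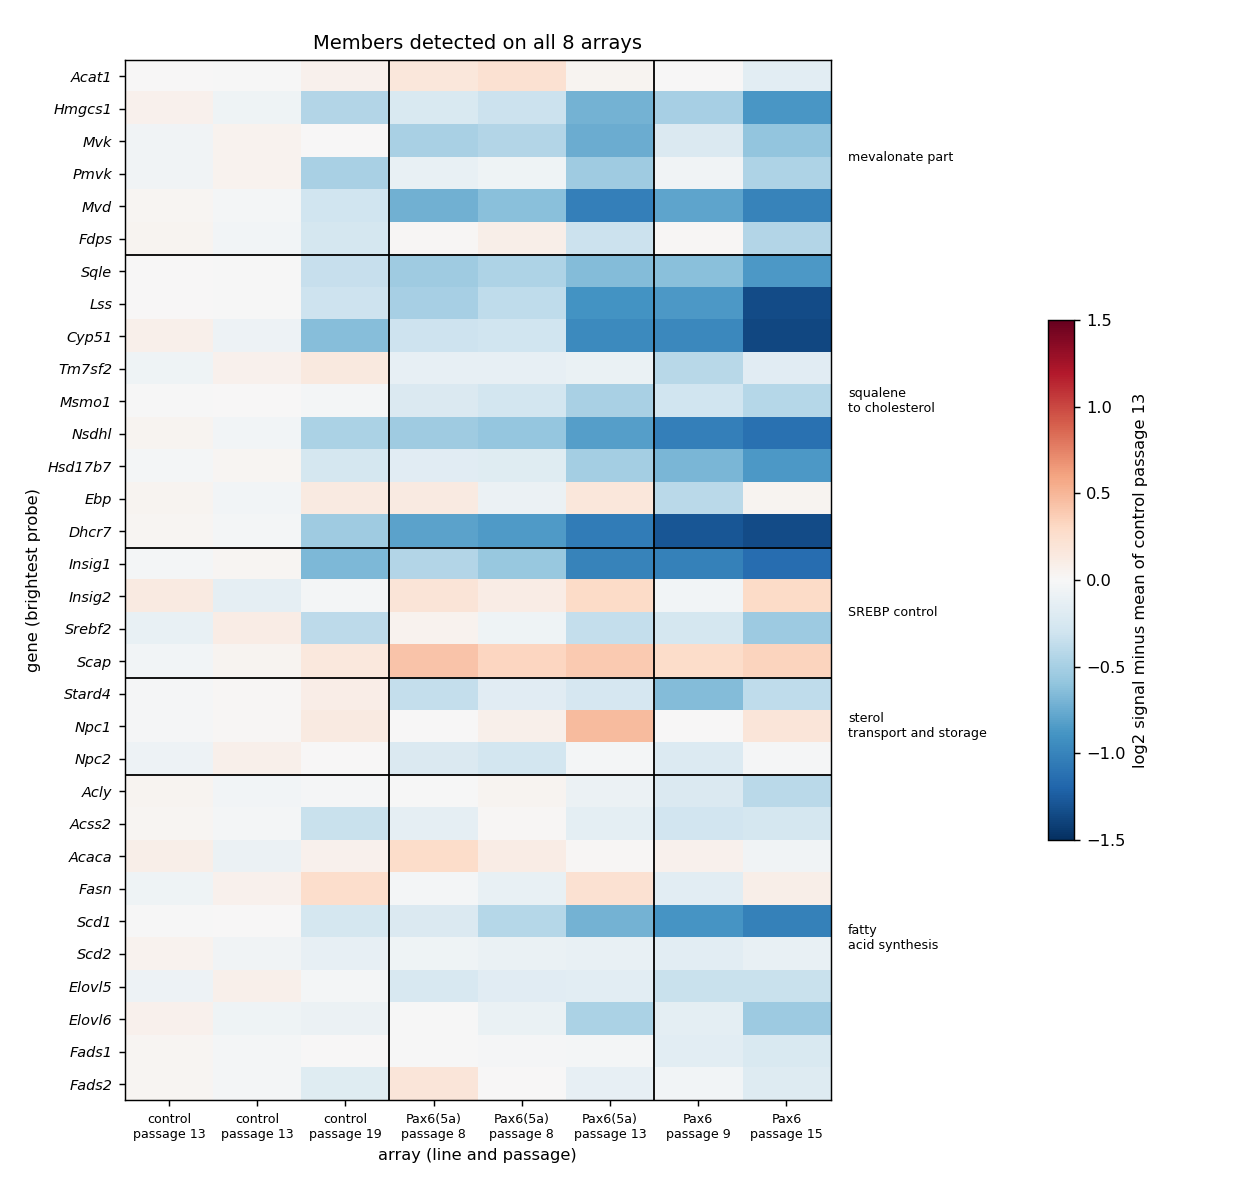
Log2 signal of the 32 members detected on all 8 arrays (rows, grouped by role) on each array (columns), minus the mean of the 2 control arrays at passage 13. Blue is lower and red higher; Dhcr7, Lss and Cyp51 are darkest on the Pax6 array at passage 15, and Scap is red on all arrays of both Pax6 lines.

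Of the enzymes of the mevalonate part, Mvd, which makes isopentenyl diphosphate by decarboxylation, fell. Its log2 signals were 9.42 and 9.36 in control cells at passage 13 and 9.09 at passage 19, 8.68 and 8.77 in Pax6(5a) cells at passage 8 and 8.37 at passage 13, and 8.60 and 8.39 in Pax6 cells at passages 9 and 15. Every array of both Pax6 lines lay below every control array. The difference of the Pax6 line from control was -0.80 ± 0.13 (SE of the fit), a 1.74-fold lower signal (adjusted p = 0.0026, limma).

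Hmgcs1, the enzyme that makes HMG-CoA, was at 13.63, 13.50 and 13.12 in control cells, 13.34, 13.25 and 12.85 in Pax6(5a) cells and 13.07 and 12.69 in Pax6 cells, in order of passage. Both Pax6 arrays were below the control arrays, but the Pax6 array at passage 9 was only just below the control array at passage 19. The difference from control was -0.54 ± 0.17 and did not pass (adjusted p = 0.085, limma). Mvk, mevalonate kinase, was at -0.40 (adjusted p = 0.065, limma). The other genes that the list placed in the mevalonate part and that were detected on all arrays were Acat1, Pmvk and Fdps. They were at -0.12 to -0.10, none of them called. By the list alone, Acat1 counts among the 15 sterol synthesis genes detected on all arrays.

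In the steps from squalene to cholesterol 5 genes fell, and the last enzyme of the list fell most. Dhcr7, which reduces 7-dehydrocholesterol to cholesterol, was at 8.69, 8.64 and 8.13 in control cells, 7.86, 7.81 and 7.61 in Pax6(5a) cells and 7.38 and 7.32 in Pax6 cells. The levels of the 3 lines did not overlap. The Pax6 line differed from control by -1.13 ± 0.14 on the log2 scale, 2.20-fold lower (adjusted p = 0.00039, limma), and Dhcr7 was the only member past the stricter threshold of adjusted p under 0.001 and 1.7-fold.

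Lss, lanosterol synthase, which closes the sterol rings, was at 11.54, 11.52 and 11.22 in control cells, 11.04, 11.15 and 10.63 in Pax6(5a) cells and 10.67 and 10.19 in Pax6 cells. The Pax6 arrays were below all control arrays, and the signal was 2.00-fold lower (SE 0.17 on the log2 scale, adjusted p = 0.0028). Sqle, squalene epoxidase, was at 12.78, 12.76 and 12.42 in control cells, 12.24, 12.31 and 12.12 in Pax6(5a) cells and 12.14 and 11.91 in Pax6 cells. Its difference was -0.63 ± 0.12 (adjusted p = 0.0064), and the second, dimmer probe gave -0.66 with a larger error and was not called (adjusted p = 0.057).

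Nsdhl and Hsd17b7 encode enzymes that act in turn in the removal of methyl groups from the sterol ring in the middle of the pathway. Nsdhl was at 13.30, 13.21 and 12.78 in control cells, 12.73, 12.67 and 12.43 in Pax6(5a) cells and 12.23 and 12.14 in Pax6 cells. By this probe the 3 lines did not overlap. The difference from control was -0.92 ± 0.14 (adjusted p = 0.0015, limma), while its 2 dimmer probes gave -0.65 and -0.68 and were not called (adjusted p = 0.05 and 0.1). By these dimmer probes the Pax6 and Pax6(5a) arrays overlapped, with differences between the 2 lines of 0.03 and -0.04. Hsd17b7 was at 11.12, 11.17 and 10.89 in control cells, 10.98, 10.97 and 10.63 in Pax6(5a) cells and 10.47 and 10.29 in Pax6 cells. Here the Pax6 arrays were apart from both other lines, and the difference from control was -0.68 ± 0.12 (adjusted p = 0.0044).

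Cyp51, the lanosterol demethylase, had a log2 difference of -0.95 ± 0.22, as large as those of Lss and Nsdhl, but its error was larger and it passed only the looser rule (adjusted p = 0.021). Msmo1, which oxidises methyl groups of the sterol ring before they are taken off, was at -0.35 (adjusted p = 0.045, limma). Tm7sf2 and Ebp, a sterol reductase and a sterol isomerase, were at -0.34 and -0.23 and were not called. Fdft1, squalene synthase, was detected on no array, with log2 signals from 5.70 to 5.93, so nothing can be said of its level.

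**Figure D2:**
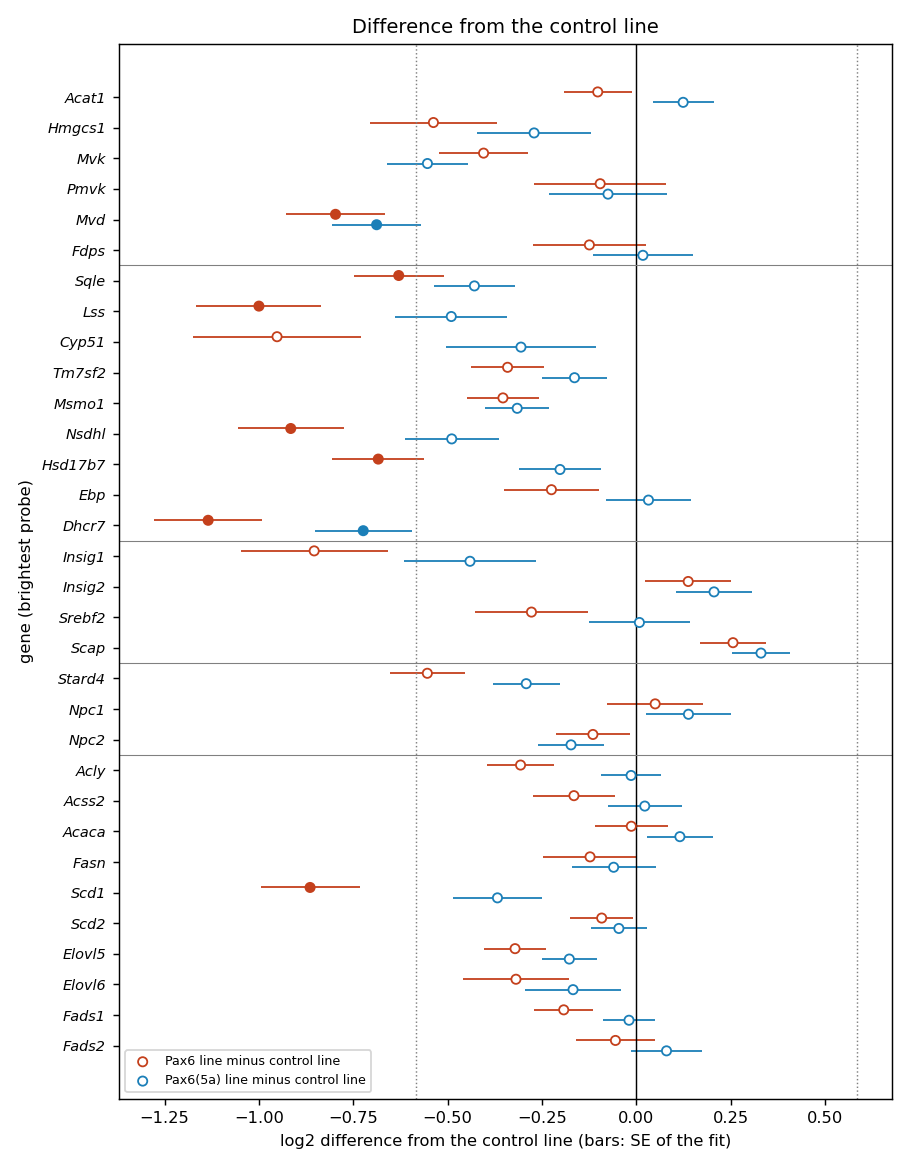
Log2 difference of the Pax6 line (red) and of the Pax6(5a) line (blue) from the control line for the 32 members detected on all arrays, with the SE of the fit as bars. Filled points were called at adjusted p under 0.01 and 1.5-fold or more, the dotted borders; 7 filled points belong to the Pax6 line and 2 to the Pax6(5a) line, and both comparisons share the control arrays.

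Among the genes of SREBP control, Insig1, itself a known SREBP target, was at 8.94, 8.99 and 8.29 in control cells, 8.53, 8.39 and 7.97 in Pax6(5a) cells and 7.95 and 7.82 in Pax6 cells. The difference of the Pax6 line from control was -0.85 ± 0.20 (adjusted p = 0.019), and a second detected probe gave -0.92 (adjusted p = 0.024); another probe was detected on no array. Srebf2 was at 9.66, 9.90 and 9.39 in control cells, 9.83, 9.71 and 9.43 in Pax6(5a) cells and 9.51 and 9.23 in Pax6 cells. These ranges overlapped, and the difference was -0.28 ± 0.15 (adjusted p = 0.4). Srebf1 was detected on no array (5.28 to 5.53). Insig2 and Scap were at 0.14 and 0.26 and were not called.

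Of the genes that move sterol, Stard4, which carries cholesterol through the cytosol and is a known SREBP target, was at 10.51, 10.54 and 10.63 in control cells and at 9.87 and 10.14 in Pax6 cells. The Pax6 arrays were below all control arrays; the difference of -0.55 ± 0.10 had an adjusted p of 0.0046 but was 1.47-fold, just short of the fold minimum. Npc1 and Npc2, which pass cholesterol out of lysosomes, were at 0.05 and -0.12 and were not called, and the sign for Npc1 turned under another scaling. Abcg1, an exporter of sterol and a target of the liver X receptors, was the 1 member that was higher. It was at 5.67, 5.73 and 5.82 in control cells, 6.05, 5.97 and 6.17 in Pax6(5a) cells and 6.25 and 6.94 in Pax6 cells, and only the last of these was detected. The difference of the Pax6 line from control was 0.85 ± 0.15 (adjusted p = 0.0048, limma). No control array detected it. With the control arrays set to the lowest detected signal of their own array, the mean of the Pax6 arrays was 1.24-fold higher. This is not a firm lower limit, since only 1 of the Pax6 arrays detected it, and the 1.24-fold value was not tested. Abca1, the other exporter, was detected on no array (5.51 to 5.87).

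Of the 10 fatty acid genes 1 fell. Scd1, stearoyl-CoA desaturase, was at 11.34, 11.35 and 11.08 in control cells, 11.12, 10.91 and 10.63 in Pax6(5a) cells and 10.45 and 10.33 in Pax6 cells. The Pax6 arrays were below those of both other lines, with a difference of -0.86 ± 0.13 from control, 1.82-fold lower (adjusted p = 0.0014). Scd2, a second desaturase of the same family and one of the brightest members, was at 14.18, 14.08 and 14.00 in control cells and 13.97 and 14.02 in Pax6 cells, a difference of -0.09 ± 0.08 that was not called. Fasn, fatty acid synthase, was at 10.22, 10.35 and 10.56 in control cells and 10.13 and 10.38 in Pax6 cells, and Acaca, acetyl-CoA carboxylase, was at 11.31, 11.14 and 11.29 and at 11.29 and 11.18. Both overlapped the control range, with differences of -0.12 and -0.01 (adjusted p = 0.73 and 0.97). All 10 fatty acid genes were below 0 by their brightest probes, with a median of -0.18. Dimmer probes of Acaca, detected on all arrays, and Acss2, detected on 3 arrays, were at 0.01 and 0.06 and were not called. Scd1 and the elongase Elovl5 (-0.32, adjusted p = 0.035, limma) alone passed the looser rule.

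The counts against control depended on single arrays. Of the 7 genes lower in the Pax6 line, 3 were called without control replicate 1 (passage 13), 2 without control replicate 2 (passage 13) and 4 without the Pax6 array at passage 9; without the Pax6 array at passage 15, Dhcr7 and Stard4 were called. Dhcr7 was called in all 19 refits that changed the background correction, normalization, filter, model or arrays, Scd1 in 16 of 19 and Sqle in 9 of 19, and no log2 difference of these genes changed sign. The 3 markers of fibroblasts that were lower in the Pax6 line at the same threshold were Fn1 (-1.26), Pdgfra (-0.94) and Pdgfrb (-0.87), and the summed signal of the 14 fibroblast markers was 39997 to 40396 in Pax6 cells and 41699 to 49438 in control cells. The part of these markers in the result was not tested.

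The second question was how the Pax6(5a) line differed from control. Here 2 of 40 members were lower and 0 were higher, against 0.651% and 0.551% of all genes, and both were among the 7 of the Pax6 line, which was set against the same control arrays. Mvd was 1.61-fold lower (-0.69 ± 0.12, adjusted p = 0.0055) and Dhcr7 was 1.65-fold lower (-0.72 ± 0.13, adjusted p = 0.0072, both limma). At an unadjusted p under 0.05, 11 members were lower and 2 were higher, against 7.99% and 8.69% of all genes. With the looser rule 5 members were lower, against 2.32% of all genes, the other 3 being Mvk (-0.55, adjusted p = 0.011), Nsdhl (-0.49, adjusted p = 0.048) and Sqle (-0.43, adjusted p = 0.042). Scap, the sterol sensor that escorts SREBP, was higher (0.33 ± 0.08, adjusted p = 0.033), against 2.55% of all genes; this call was lost without control replicate 1 or 2 or without any 1 of the 3 Pax6(5a) arrays. Of the 15 detected sterol synthesis genes 12 were below 0, with a median of -0.31, while 49% of all detected genes were below 0.

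Cyp51 and Insig1 were at -0.31 and -0.44 and Hsd17b7 and Scd1 at -0.20 and -0.37 in this line, and none of them was called. The fatty acid genes had a median of -0.03 and no call. The 2 calls were lost without control replicate 1, control replicate 2, Pax6(5a) replicate 1 (passage 8) or Pax6(5a) replicate 3 (passage 13), and 1 remained, for Mvd, without Pax6(5a) replicate 2 (passage 8). With passage number as a covariate 10 members were lower and 0 were higher in this comparison, against 1.28% and 1.05% of all genes in that fit, and 10 were lower and 1 was higher in the Pax6 comparison, against 2.02% and 1.44%.

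Passage 13 was sampled in both the control and the Pax6(5a) line, so they could be set side by side at the same passage number, on 2 arrays and 1 array and without a test. It was the earlier passage of the control line and the later passage of the Pax6(5a) line. The sterol synthesis genes were lower at the later passage within these lines (medians -0.30 and -0.28, given below). Line and order of passage within the line thus cannot be told apart here. The Pax6(5a) array was below both control arrays for 13 of 15 sterol synthesis genes (86.7%), against 39.7% of the 6963 detected genes, and the median difference was -0.65 against 0.02. Dhcr7 was 8.66 on average in control cells and 7.61 in Pax6(5a) cells, Mvd 9.39 and 8.37, Cyp51 11.69 and 10.73, and Insig1 8.96 and 7.97. Ebp and Acat1 were the sterol synthesis genes that did not lie below both control arrays. Whether passage 13 stands for the same number of divisions since selection in both lines is not given in the sources used here.

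The levels of the lines were also compared by whether their arrays overlapped. Both Pax6 arrays were below all 3 control arrays for 11 of the 15 sterol synthesis genes, against 22.3% of detected genes, and all 3 Pax6(5a) arrays were below all control arrays for 8 of 15, against 16.6%. Both Pax6 arrays were below all Pax6(5a) arrays for 6 of 15, against 18.5%. The mean log2 signal of the 15 genes was 10.68 and 10.65 in control cells at passage 13 and 10.42 at passage 19, 10.37 and 10.37 in Pax6(5a) cells at passage 8 and 10.09 at passage 13, and 10.12 and 9.93 in Pax6 cells at passages 9 and 15. The lowest control array was thus that of the highest passage, and it was still above all arrays of the other lines.

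The direct comparison of the Pax6 line with the Pax6(5a) line asked whether the 2 isoforms differed for these genes. None of the 40 members was called by limma at the fold threshold, against 0.426% of all genes lower and 0.251% higher, and none passed the looser rule, against 1.08% of all genes lower and 0.927% higher. At an unadjusted p under 0.05, 10 members were lower and 1 was higher, against 6.44% and 6.41% of all genes. Of the 15 detected sterol synthesis genes 14 were below 0, with a median of -0.23. The smallest adjusted p-values belonged to Hsd17b7 (-0.48 ± 0.12, adjusted p = 0.078) and Scd1 (-0.50 ± 0.13, adjusted p = 0.094), whose Pax6 arrays were below all Pax6(5a) arrays. Lss and Cyp51 were at -0.51 ± 0.17 and -0.65 ± 0.22 and Mvd at -0.11 ± 0.13, also not called. The looser calls depended on how passage entered the fit. With earlier or later passage as a block, 5 members were lower, against 2.3% of all genes in that fit, and 1 was higher, against 2%. The lower genes were Cyp51 (-0.55, adjusted p = 0.0029), Hsd17b7 (-0.44, adjusted p = 0.0072), Lss (-0.44, adjusted p = 0.0086), Scd1 (-0.45, adjusted p = 0.013) and Nsdhl (-0.38, adjusted p = 0.04), and the higher gene was Abcg1 (0.49, adjusted p = 0.028). With passage number as a covariate Cyp51, Hsd17b7 and Scd1 were lower, 3 members against 2.24% of all genes. No member was called at the fold threshold in either of these fits. The looser call for Nsdhl came from its brightest probe. The 2 dimmer Nsdhl probes were at 0.03 and -0.04 in the fit without a passage term. Without control replicate 3 (passage 19) Dhcr7 passed the looser rule, without Pax6(5a) replicate 3 (passage 13) Hsd17b7 and Scd1 did, and without the Pax6 array at passage 9 Abcg1 passed the fold threshold.

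**Figure D3:**
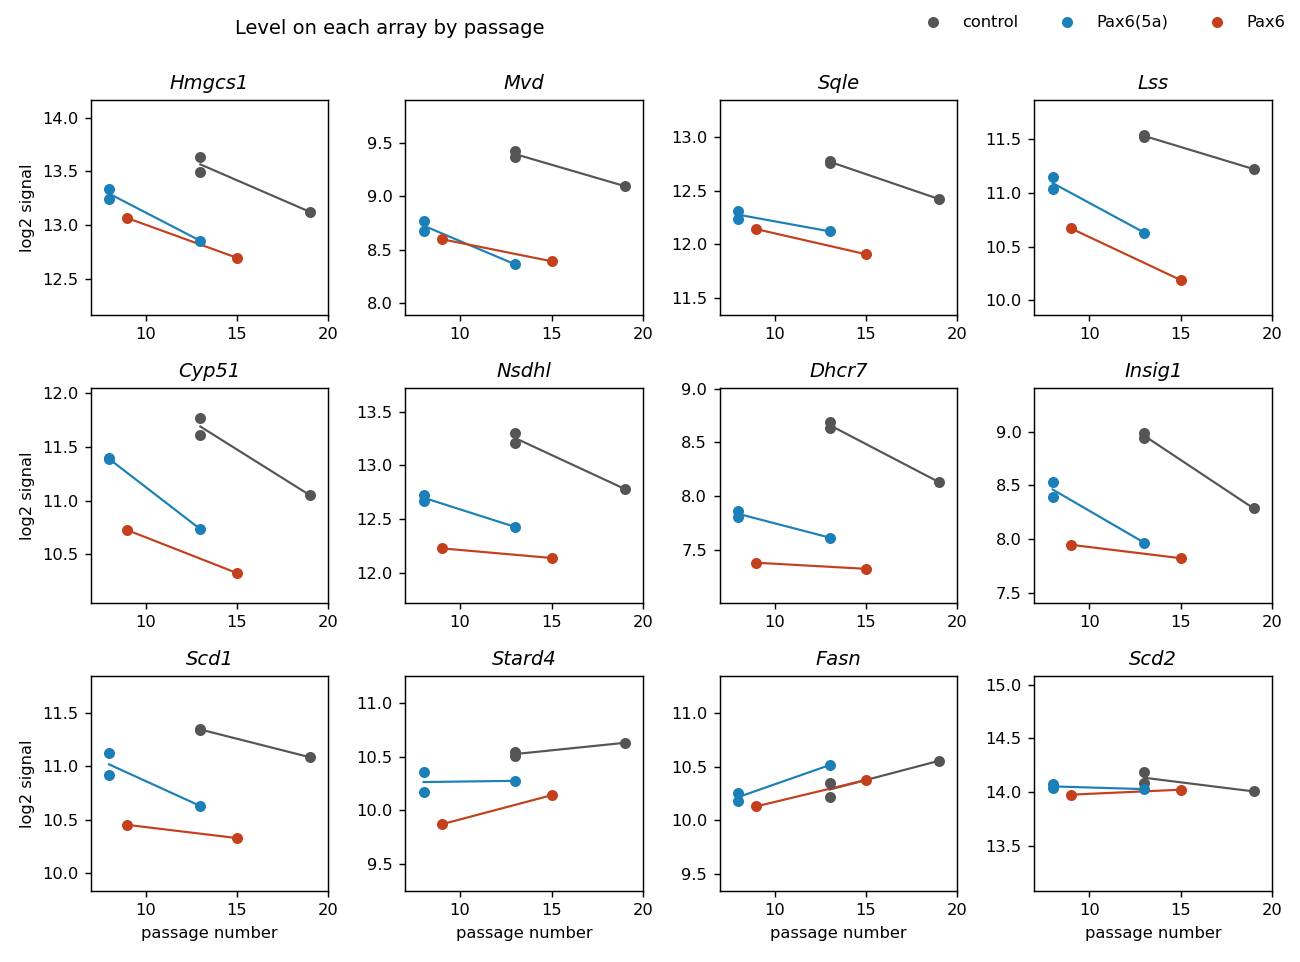
Log2 signal (vertical axis, spanning the same range of log2 units in each panel) of 12 members on each array against passage number, with a line joining the means of the earlier and the later passage of each cell line. Hmgcs1, Lss and Cyp51 go down with passage in all 3 lines while Fasn goes up. For Dhcr7, and for Nsdhl by its brightest probe, the lines stay apart at every passage.

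Each line was sampled at an earlier and a later passage, which gives a comparison across passage with the line in the model. No member was called by its brightest probe at the fold threshold, against 0.138% of all genes lower and 0.15% higher, and a dimmer probe of Nsdhl was called (-0.59 ± 0.07, adjusted p = 0.00055). At an unadjusted p under 0.05, 16 members were lower and 5 were higher, against 7.35% and 7.81% of all genes. With adjusted p under 0.05 and no fold minimum 9 members were lower and 1 was higher at the later passage, against 1.3% and 1.45% of all genes. The 9 were the mevalonate genes Hmgcs1, Pmvk, Mvd and Fdps, the later enzymes Lss, Cyp51 and Hsd17b7, and the regulators Insig1 and Srebf2, and the 1 was Fasn.

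Cyp51 had the largest passage difference of the members by their brightest probes. It was at 11.77 and 11.61 in control cells at passage 13 and 11.05 at passage 19, 11.39 and 11.40 in Pax6(5a) cells at passage 8 and 10.73 at passage 13, and 10.73 and 10.33 in Pax6 cells at passages 9 and 15. The later array was the lowest of its line each time, and the fitted difference was -0.58 ± 0.07 (adjusted p = 0.00086). Pmvk, phosphomevalonate kinase, which was at -0.10 and -0.08 in the Pax6 and Pax6(5a) lines against control, was at -0.45 ± 0.07 (adjusted p = 0.0027), Hmgcs1 at -0.42 ± 0.07 (adjusted p = 0.0048), Lss at -0.41 ± 0.07 (adjusted p = 0.0057) and Srebf2 at -0.35 ± 0.07 (adjusted p = 0.023). Fasn was at 0.27 ± 0.07 (adjusted p = 0.044), and its later minus earlier differences were 0.27, 0.30 and 0.25 in the control, Pax6(5a) and Pax6 lines. The call for Fasn was lost when any 1 of the 8 arrays was left out.

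**Figure D4:**
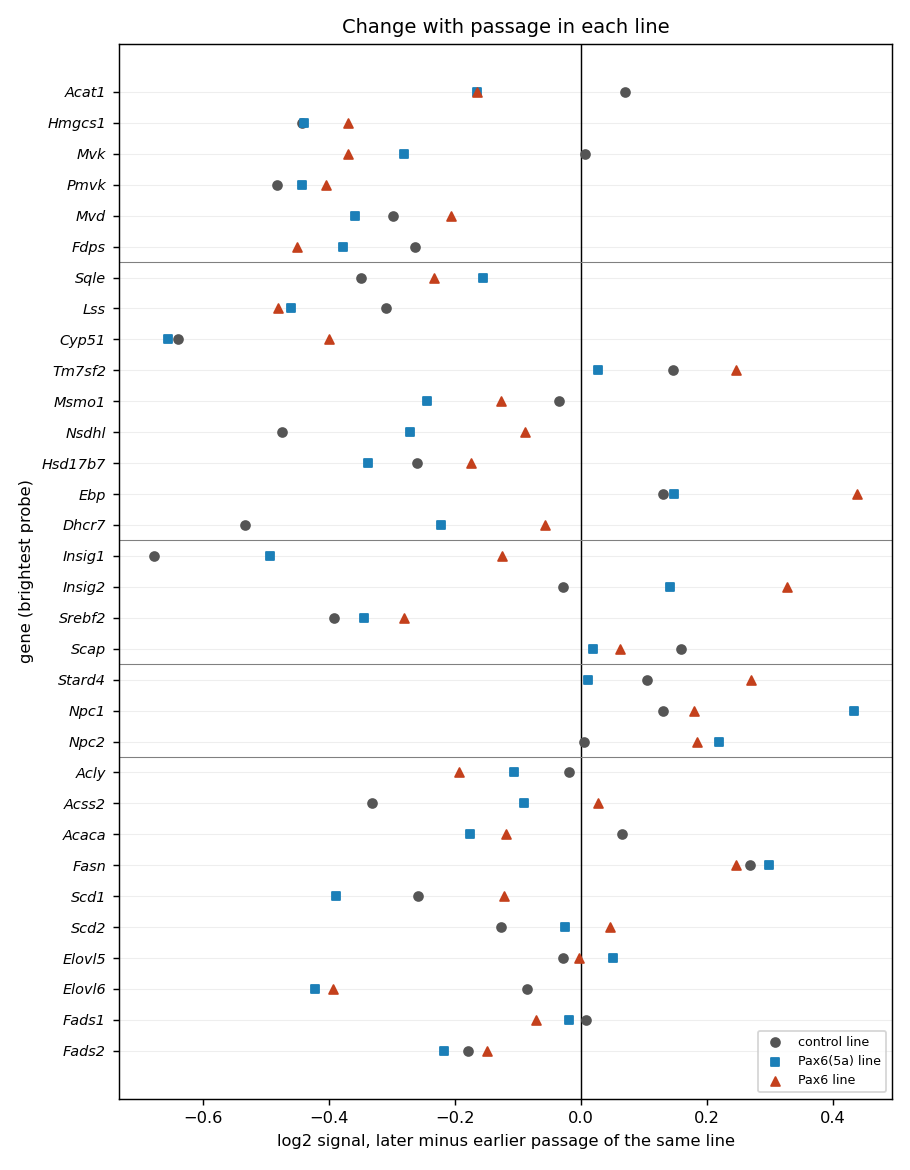
Difference in log2 signal between the later and the earlier passage of the control (grey circles), Pax6(5a) (blue squares) and Pax6 (red triangles) lines for the 32 members detected on all arrays. Points left of 0 were lower at the later passage. Of the 15 sterol synthesis genes 11 lie left of 0 in all 3 lines, and Stard4, Npc1, Npc2 and Fasn lie right of 0 in all 3. Npc2 in the control line and Stard4 in the Pax6(5a) line lie only just right of 0.

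The differences within the 3 lines share no array. For 11 of 15 sterol synthesis genes (73.3%) the later passage was lower in all 3 lines, against 19.5% of detected genes, and Tm7sf2 and Ebp were higher in all 3. The medians of the 15 genes were -0.30, -0.28 and -0.21 in the control, Pax6(5a) and Pax6 lines, where those of all detected genes were 0.01, 0.0013 and 0.01. All 3 detected sterol transport genes, Stard4, Npc1 and Npc2, were higher at the later passage in all 3 lines, against 22.1% of detected genes, and none of them was called. Some of these differences were close to 0. They ran from 0.0042 for Npc2 in the control line and 0.01 for Stard4 in the Pax6(5a) line to 0.43 for Npc1 in the Pax6(5a) line. The change of Dhcr7 was -0.53 in the control line, -0.22 in the Pax6(5a) line and -0.06 in the Pax6 line, and that of Insig1 was -0.68, -0.49 and -0.13. A limma test of the difference in passage change between lines called no member. It called few probes at all: of 24613, 24 for the Pax6 line against control and 9 for the Pax6(5a) line against control. For the Pax6 line against the Pax6(5a) line it called 6. The smallest adjusted p was 0.12, for a dimmer Insig1 probe in the Pax6 line against control, and the brightest Insig1 probe had 0.36. The spread in this test came only from preparations of the same passage in the control and Pax6(5a) lines. With so few of them, it cannot show that the lines changed alike. The earlier passages were 8, 9 and 13 and the later 13, 15 and 19, so the comparison is of order within a line and not of a fixed number of passages. Without Pax6(5a) replicate 3 (passage 13), the only later array of that line, 3 members passed the looser rule, Cyp51, Hmgcs1 and Pmvk. Of the fibroblast markers, Fn1 was also lower at the later passage (-0.50, adjusted p = 0.038), and its part in the result was not tested.

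The wider pathway was counted from lists of other genes. In the Pax6 line, 1 of 17 other genes of sterol uptake, transport and storage was higher and 1 lower than control, 0 of 10 genes of isoprenoid and side branches and 0 of 12 genes of SREBP processing and sterol sensing were called, 1 of 24 genes of fatty acid elongation, activation and supply was lower, and 0 of 6 other partners and targets of the liver X receptors were called. Of all genes 1.03% were higher and 1.42% lower in that comparison. The higher gene was Cav1, the coat protein of caveolae, which bind cholesterol. It was at 11.38, 11.21 and 11.17 in control cells, 11.88, 11.66 and 12.18 in Pax6(5a) cells and 11.80 and 12.02 in Pax6 cells, so both Pax6 lines were above all control arrays. The difference was 0.66 ± 0.13 in the Pax6 line (adjusted p = 0.0096) and 0.65 ± 0.12 in Pax6(5a) cells (adjusted p = 0.0082). The lower genes were Stard5, a cytosolic sterol carrier (-0.72 ± 0.13, adjusted p = 0.005), and Lpin2, a phosphatidate phosphatase (-0.71 ± 0.10, adjusted p = 0.00083). In the Pax6(5a) line, where 0.551% of all genes were higher and 0.651% lower, Cav1 was the only gene of these lists past the threshold, and across passage none was.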

How the data were processed

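The labels name 8 arrays of 3 lines, with the passage of each. The authors deposited unnormalized intensity values of 24613 probes per array, each with its detection p-value. They also deposited a table of quantile-normalized signal that was not on the log2 scale. The quantile-normalized signal recomputed here from the intensity, before logs were taken, differed from the deposited values by at most 5e-06. Per the labels limma was used upstream, version not given in the sources used here. No background was subtracted, so fold changes of dim probes are understated. Here a mean per line was fitted to all 8 arrays in 1 model (limma 3.58.1, R 4.3.3; figures with Python 3.11.15 and matplotlib 3.10.9), with Benjamini-Hochberg adjustment over all probes. Passage was tested as later against earlier, with line in the model. Arrays have no sequencing depth, and their number, 2 or 3 per line, limits the precision. Probes were named from the platform table: 20984 carried 1 gene symbol, 1 several and 3628 none. The fit was tested on simulated data. The members and the lists of other genes were chosen with earlier results of these data known. Values on every array are given for members past the fold threshold and for defining members (Hmgcs1, Fdft1, Sqle, Lss, Insig1, Srebf1, Srebf2, Abca1, Fasn, Acaca, Scd1, Scd2); Cyp51, Stard4 and Cav1 were given in the same way after their values were seen, Cav1 because it passed the threshold. Lists of adipocyte, epithelial and macrophage markers were also counted. Alternatives were other background corrections, scalings, filters, models, passage terms, thresholds, probes, and leaving out each array; the looser rule under each alternative, the differences within lines, passage 13 and the promoter letters were added after the data were seen.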

Additional observations from a re-analysis of the deposited data

How the results depend on the processing

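No log2 difference of a called member changed sign under any alternative. For the Pax6 line against control, the 7 lower members became 1 with neqc background correction, 1 with preparations of the same passage averaged, 1 at the stricter threshold, 12 at adjusted p under 0.05 and 2 to 9 when each array was left out. The 1 higher member, Abcg1, became 0 with neqc, with probes detected on at least 2 arrays, with only the 2 lines compared, with preparations averaged and at the stricter threshold, and 0 to 1 when each array was left out. By the looser rule Abcg1 became 0 with that detection filter. Of all genes, 3.82% were lower by the looser rule in the fit without a passage term and 5.4% with passage number as a covariate. The 12 lower members of the looser rule became 19 with passage number as a covariate, 7 with preparations averaged and 7 to 14 when each array was left out. For the Pax6(5a) line, the 2 lower members became 0 with neqc, with preparations averaged and at the stricter threshold, 1 with the detection filter or with culture as a random block, 10 with passage number as a covariate, 5 at adjusted p under 0.05 and 0 to 3 when each array was left out, and the 0 higher became 1 at adjusted p under 0.05. The 5 of the looser rule, against 2.32% of all genes, became 2 with neqc and 3 with median scaling, cyclic loess or the random block. They became 14 with passage number as a covariate, against 3.58%, and 12 with earlier or later passage as a block, against 3.94%. The 5 became 0 with preparations averaged and 2 to 6 when each array was left out. The 1 higher of this rule, Scap, became 0 with a variance trend, the random block or preparations averaged. It became 2 with passage number as a covariate, against 3.8% of all genes, and 0 to 1 when each array was left out. For the Pax6 line against the Pax6(5a) line, the 0 higher became 0 to 1 when each array was left out, Abcg1 being the 1. By the looser rule the 0 lower became 1 with median scaling, 3 with passage number as a covariate, 5 with earlier or later passage as a block and 0 to 2 when each array was left out, and the 0 higher became 1 with that block and 0 to 1 when each array was left out. Across passage, the 0 lower became 9 and the 0 higher became 1 at adjusted p under 0.05, the lower count was 1 with all probes counted and 0 to 2 when each array was left out, and the 9 of the looser rule became 5 with neqc, 4 with preparations averaged and 3 to 8 when each array was left out, and its 1 higher, Fasn, became 0 with neqc, with preparations averaged and when each array was left out. The numbers 1 and 2 in the labels of the control and Pax6(5a) lines did not pair the arrays (correlation of deviations 0.084, 2 pairs). With the replicate block over those 4 arrays, 2 members were lower in the Pax6(5a) line, and by the looser rule 9 were lower and 2 higher. The share of all genes called in that fit was not counted, so these counts have nothing to be set against. Without 1 Pax6 array the other is assumed to vary like the other lines. The median of the sterol synthesis genes ranged from -0.76 to -0.43 for the Pax6 line, from -0.67 to -0.17 for the Pax6(5a) line, from -0.32 to -0.14 for the Pax6 line against the Pax6(5a) line (10 to 15 genes below 0) and from -0.32 to -0.26 across passage, and the sign turned with scaling for Npc1 in the Pax6 line and Fdps in the Pax6(5a) line. The cause of these changes was not tested. For the 6 members detected on no array, signal over background sets the limit.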

Other observations

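Outside the sterol genes, the macrophage marker list held 2 of 8 genes detected on all arrays. Lyz2, a lysozyme, was 1.95-fold higher in the Pax6 line (0.97 ± 0.12, adjusted p = 0.00031, limma) and 1.72-fold higher in the Pax6(5a) line (0.78 ± 0.11, adjusted p = 0.0012) than in the control line. The other, Cd14, was at 8.88, 8.49 and 8.51 in control cells, 8.25, 8.30 and 8.20 in Pax6(5a) cells and 8.46 and 8.14 in Pax6 cells, differences of -0.33 and -0.38 for the Pax6 and Pax6(5a) lines that were not called (adjusted p = 0.18 and 0.091). Of the 8 genes, 6 were detected on no array and the summed signal of the list was 809 to 865 in Pax6 cells and 792 to 894 in control cells. Of the epithelial markers, 9 of 10 were detected on no array. Pdgfrb, a growth factor receptor of fibroblasts, was also lower in Pax6 than in Pax6(5a) cells (-0.60 ± 0.09, adjusted p = 0.0055). Erg28, known in yeast as a scaffold of the sterol demethylation enzymes, was at -0.43 ± 0.07 across passage (adjusted p = 0.0038), without reaching the fold minimum; it was named after its value was seen.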
